A study of Mus musculus with 2 samples.

Results

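Interferon-stimulated genes are the genes that cells switch on when an interferon binds its receptor. The type I receptor, built from Ifnar1 and Ifnar2, activates the kinases Jak1 and Tyk2, and a complex of STAT proteins and Irf9 then binds the interferon-stimulated response element of these genes. Their products detect viral RNA, block viral entry, translation and release, and in macrophages also attack the membrane around intracellular microbes. A set of 45 such genes was followed on 2 Affymetrix Mouse Genome 430 2.0 arrays, out of 18194 genes with a probe set (a group of probes read as 1 signal) that named exactly 1 gene. They were sorted by role into 21 antiviral effectors, 4 nucleic acid sensors, 9 genes of ISG15, ubiquitin and ADP-ribose modification, 7 GTPases and 4 transcription factors.

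Both samples were macrophages of wild-type 8-week-old male C57BL6 mice, washed out of the peritoneal cavity 1 week after thioglycolate, an irritant that draws inflammatory macrophages there. The cells were grown in serum-containing medium and then kept for 12 h without addition (control) or with 100 ng/ml CSF1, the macrophage growth factor that acts through the receptor Csf1r. The comparison asks how transcript levels differed after CSF1. Each group had 1 array, the labels do not say how many mice or cultures gave its RNA, so every difference below describes these 2 samples, without a test or a replicate check, at a precision set by the small number of arrays.

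Signals are the authors' linear array units. A background level of 133.33 units was taken from genes of unrelated tissues, and 11218 genes that exceeded it on 1 or both arrays are called measured. Where a gene had several probe sets, their log2 ratios scattered with a pooled SD of 0.29 (3875 genes); this scatter serves as a yardstick for single genes and holds no variation of cultures or mice. The ratio of 3′ to 5′ signal, a sign of RNA integrity, was 1.35 and 1.38 for Actb on the control and CSF1 arrays and 1.03 and 1.40 for Gapdh, and its part in any result was not tested. All 8 macrophage markers, such as Csf1r and Adgre1, were above background on both arrays. Their summed signal was 142448 units in the control and 116729 units after CSF1. In such bulk RNA, fewer cells of a type and less of a transcript per cell cannot be told apart.

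Most genes of this set, which was chosen with earlier results of these data known, were slightly higher on the CSF1 array. Of the 45 genes, 42 were measured, 33 of them with a log2 ratio of CSF1 over control above 0 and 9 below, and their median was 0.21, or 1.15-fold. Over all measured genes the median was 0.00 and 50% had a ratio above 0. The quartiles were 0.07 and 0.41 for the interferon-stimulated genes and -0.21 and 0.22 over all measured genes. At least 1.5-fold higher were 5 of the 42 (Ifit3, Dhx58, Ifit1, Isg20 and Mx1), where 5.95% of all measured genes were, and none was at least 1.5-fold lower, where 5.54% were. Leaving Mx1 aside, none of the other 41 reached 2-fold in either direction, as 0.998% (higher) and 0.784% (lower) of all measured genes did; the value of Mx1 is a lower bound and may lie above 2-fold. Within 1.2-fold lay 22 of the 42. The median itself is smaller than the pooled SD between probe sets of a gene, a scatter that applies to single genes and not to a list's median. The shift belongs to this set and not to the whole family. In a list of further interferon-stimulated genes, described below, 11 of 20 measured genes were above 0, with a median of 0.04.

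**Figure D1:**
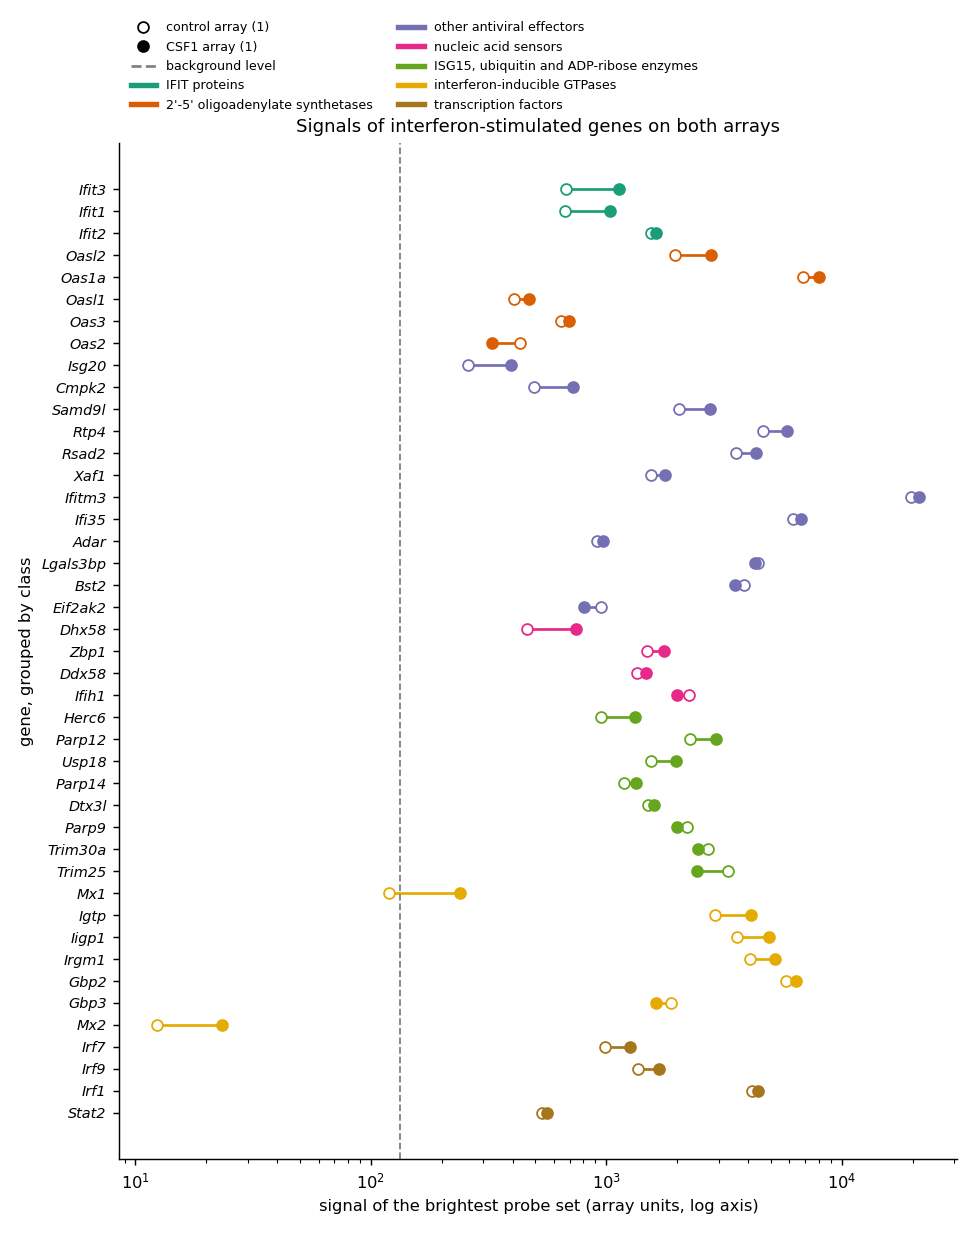
Signal of the brightest probe set of each of 43 interferon-stimulated genes on the control array (open circles) and the CSF1 array (filled circles), in array units on a log axis, coloured by class, with the background level of 133.33 units as a dashed line. Most filled circles lie to the right of the open ones by a small distance, Oas2 and Trim25 go the other way, Mx1 crosses the background level and Mx2 lies below it on both arrays; distances between different genes are not comparable.

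The 3 genes outside the 42 were Isg15, Ifi44 and Mx2. Isg15, the ubiquitin-like modifier that gives this family one of its names, was covered only by a probe set that also lists another gene, and Ifi44 by no probe set naming it, so neither has a value. The GTPase gene Mx2 read 12.4 units in the control and 23.4 units after CSF1, below background on both arrays. Mx1 was measured through the CSF1 array alone and enters as a lower bound.

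What these promoters share in sequence is shown first, since the response element is the feature that the family is known for. RefSeq promoter windows of GRCm38.p6, running from 250 bases before to 50 bases after an annotated gene start, were matched for 35 of the 45 genes. They were searched on both strands for GAAANNGAAA, the core of the interferon-stimulated response element, and for the palindrome TTCNNNGAA, the core of the gamma-activated site bound by STAT dimers. For each class with a match, the gene of highest ratio is printed, up to 6 genes, 5′ to 3′ on the gene's own strand, with matches to the response element core in capitals. Antiviral effectors count here as IFIT, OAS and other effector genes. The limit left out the ISG15, ubiquitin and ADP-ribose class, whose only measured gene with a match was Trim30a, at -0.15. All printed genes therefore had ratios above 0. The windows are chr19:34583279-34583578 (+) for Ifit3, chr11:58199306-58199605 (+) for Igtp, chr12:26456403-26456702 (-) for Rsad2, chr5:120907476-120907775 (-) for Oas1a, chr4:40239776-40240075 (-) for Ddx58 and chr10:128270248-128270547 (+) for Stat2.
Ifit3: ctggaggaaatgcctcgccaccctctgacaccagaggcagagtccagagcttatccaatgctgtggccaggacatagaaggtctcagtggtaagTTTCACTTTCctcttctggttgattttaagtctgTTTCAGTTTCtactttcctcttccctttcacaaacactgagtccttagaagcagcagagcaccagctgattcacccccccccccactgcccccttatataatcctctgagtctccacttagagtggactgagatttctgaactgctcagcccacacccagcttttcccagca
Igtp: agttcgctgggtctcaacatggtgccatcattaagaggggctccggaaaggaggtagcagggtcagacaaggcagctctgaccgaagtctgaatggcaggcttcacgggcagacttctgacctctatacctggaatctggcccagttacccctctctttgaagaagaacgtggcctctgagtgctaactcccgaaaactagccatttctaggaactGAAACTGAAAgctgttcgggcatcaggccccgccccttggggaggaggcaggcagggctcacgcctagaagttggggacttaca
Rsad2: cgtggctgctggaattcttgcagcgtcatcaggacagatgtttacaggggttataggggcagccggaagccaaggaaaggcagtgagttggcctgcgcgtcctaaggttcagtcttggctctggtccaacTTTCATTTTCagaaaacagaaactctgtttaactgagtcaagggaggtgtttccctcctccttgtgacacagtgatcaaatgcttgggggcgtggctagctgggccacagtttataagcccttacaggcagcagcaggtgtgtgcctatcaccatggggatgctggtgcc
Oas1a: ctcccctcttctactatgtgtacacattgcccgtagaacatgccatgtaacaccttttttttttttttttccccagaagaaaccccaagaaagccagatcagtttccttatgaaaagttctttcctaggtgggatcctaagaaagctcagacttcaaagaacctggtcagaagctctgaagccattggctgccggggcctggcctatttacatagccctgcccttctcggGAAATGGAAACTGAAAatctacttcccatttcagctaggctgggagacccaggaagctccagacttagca
Ddx58: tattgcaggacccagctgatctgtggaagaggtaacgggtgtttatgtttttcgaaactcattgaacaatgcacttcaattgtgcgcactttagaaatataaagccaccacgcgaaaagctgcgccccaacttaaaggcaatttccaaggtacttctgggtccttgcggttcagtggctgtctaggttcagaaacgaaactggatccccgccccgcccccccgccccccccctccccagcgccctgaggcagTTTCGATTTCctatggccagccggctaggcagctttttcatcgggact
Stat2: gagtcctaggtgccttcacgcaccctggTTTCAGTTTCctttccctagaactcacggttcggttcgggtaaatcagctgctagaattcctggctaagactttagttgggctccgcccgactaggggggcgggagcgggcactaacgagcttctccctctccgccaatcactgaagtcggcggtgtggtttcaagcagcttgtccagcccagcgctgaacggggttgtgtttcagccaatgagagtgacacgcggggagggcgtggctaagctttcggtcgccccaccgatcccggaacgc

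The response element core was found in the windows of 17 of the 35 genes (48.6%), against 3.44% of 32851 windows of all genes. It lay in 18 of the 44 windows of these genes (40.9%), some of which have several starts. The gamma-activated core was found in 10 of the 35 genes (28.6%), or 10 of the 44 windows (22.7%), against 8.30% of all windows. In 2 genes a match of one overlapped a match of the other. The 27 matches to the response element core began between positions -222 and 33 from the gene start, and 19 lay wholly within the 150 bases before it. Ifit1, Ifit3, Bst2, Gbp3, Irgm1, Oas1a, Ifitm3 and Trim30a have 2 matches each, and Isg15 has 3, each overlapping the next.

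**Figure D2:**
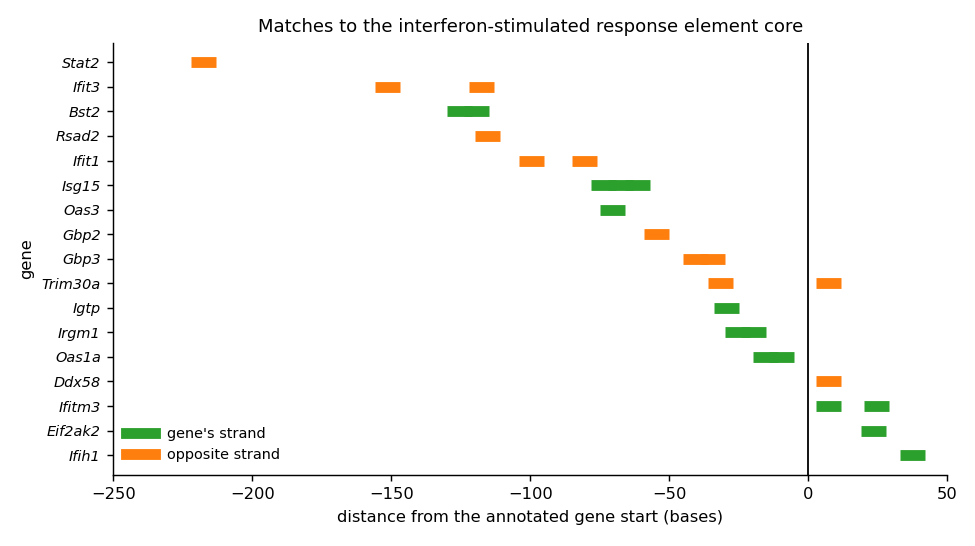
Position of each match to the response element core, in bases from the annotated gene start, in the promoter windows of 17 interferon-stimulated genes; green bars are matches on the gene's strand and orange bars on the opposite strand. Most of the 27 matches sit in the 150 bases before the start, while those of Ddx58, Ifitm3, Eif2ak2 and Ifih1 and 1 of Trim30a lie just after it.

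Genes whose window holds the element did not have the higher median. The 16 measured genes with a match had a median log2 ratio of 0.13, with 11 above 0, and the 17 measured genes with a searched window but no match had 0.21, with 15 above 0. Among all measured genes with a window, the 338 with a match had a median of 0.03, with 54.1% above 0, against 0.00 and 50.1% for those without one. These are descriptions of the letters in a short window and say nothing of binding.

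The 3 IFIT genes had a median of 0.64 but were unequal. Of these, Ifit1 encodes a protein that binds viral RNA lacking the host's cap methylation and blocks its translation. Ifit3 read 674 units in the control and 1135 units after CSF1, 1.69-fold higher. Ifit1 read 670 and 1042 units, 1.56-fold higher. Ifit2 read 1545 and 1623 units, 1.05-fold higher, and so stood nearly level beside its neighbours. In the gene order of RefSeq, Ifit2 and Ifit3 are adjacent on the chromosome, and 3 protein-coding genes lie between Ifit3 and Ifit1. Each IFIT gene was read by a single probe set, so these differences have no second probe set to set beside them.

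Of the 5 oligoadenylate synthetase genes 4 were above 0 and 1 below, and their median was 0.21. OAS enzymes answer double-stranded RNA by making a short nucleotide that activates the ribonuclease RNase L. Oasl2, an OAS-like gene, read 1956 and 2789 units in control and CSF1, 1.43-fold higher, and its neighbour Oasl1, a relative known to restrain Irf7 translation, read 406 and 471 units, 1.16-fold higher. Oas1a, whose window holds 2 overlapping copies of the element, read 6863 and 8016 units, 1.17-fold higher. Oas3 was close to level, at 644 and 694 units. Oas2, adjacent to Oas3 in the genome, was lower on the CSF1 array, with 429 units in the control and 328 units after CSF1, 1.31-fold. All 5 rest on 1 probe set each.

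Of the other 12 measured antiviral effectors, 9 were above 0, with a median of 0.16. The exonuclease gene Isg20, which degrades single-stranded RNA, read 259 and 393 units, 1.52-fold higher. Samd9l, a restriction factor of poxviruses, read 2045 and 2756 units, 1.35-fold higher. Rtp4, a receptor-transporter protein gene, read 4621 and 5847 units, 1.27-fold higher. Relative to all measured genes, these 3 stood above 0 under each alternative way of processing the arrays that gave them a value.

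Rsad2, which encodes viperin, an enzyme that makes a chain-terminating nucleotide, was higher on each of its 3 probe sets, whose log2 ratios averaged 0.25 ± 0.11 (SD). On the brightest of them the control read 3559 units and the CSF1 array 4331 units. Its neighbour Cmpk2, a nucleotide kinase gene, was 1.46-fold higher on its brighter probe set (492 and 721 units) and 0.38 lower on the log2 scale on the other (215 and 165 units). The mean for Cmpk2 was 0.09 ± 0.65 (SD between 2 probe sets), so its direction is not settled.

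The remaining effectors were nearer to level. Xaf1, an interferon-inducible partner of the apoptosis inhibitor XIAP, read 1545 and 1772 units, 1.15-fold higher. Ifitm3, which hinders the fusion of viruses with endosomal membranes, read 19617 and 21381 units, 1.09-fold higher. Ifi35, a partner of the protein Nmi, averaged 0.21 ± 0.18 (SD) over 3 probe sets. Adar, the RNA-editing enzyme that keeps the cell's own double-stranded RNA from being sensed, had a mean of 0.14 ± 0.08 (SD between 2 probe sets). Below 0 stood Lgals3bp, a secreted glycoprotein gene, at 4410 and 4281 units, and Bst2, or tetherin, which holds budding virus at the cell surface, at 3867 and 3539 units. Eif2ak2, the kinase PKR that stops translation on sensing double-stranded RNA, read 953 and 808 units, 1.18-fold lower, but averaged -0.05 ± 0.21 (SD) over its 3 probe sets.

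Among the sensors, Dhx58 had the largest ratio on the brightest probe sets. Dhx58 encodes LGP2, which lacks the signalling domains of its relatives RIG-I (Ddx58) and MDA5 (Ifih1) and tunes their activity. Its signal was 462 units in the control and 747 units after CSF1, 1.61-fold higher. Ddx58 read 1352 and 1479 units, 1.09-fold higher on its brightest probe set, with a mean of -0.05 ± 0.25 (SD between 2 probe sets). Ifih1 read 2237 and 1991 units, 1.12-fold lower. Neither RNA receptor thus differed by more than the disagreement between probe sets. Another probe set of Dhx58 read 204 units in the control and 125 units after CSF1, which is below background, so it was lower where the brightest one was higher.

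Zbp1, a sensor of Z-form nucleic acid that can trigger necroptosis, read 1494 and 1768 units on its brightest probe set, 1.18-fold higher. Its other probe set was at 125 units, below background, in the control and at 300 units after CSF1. Both were higher on the CSF1 array, by different amounts. The 4 sensors had a median of 0.19, with 3 above 0.

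**Figure D3:**
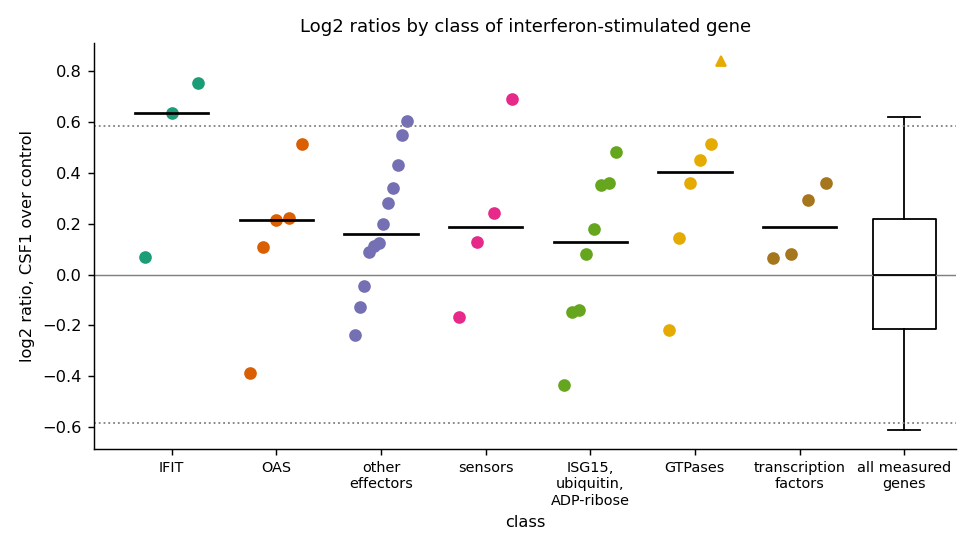
Log2 ratio (CSF1 to control) of each measured interferon-stimulated gene (points) by class, with the class median (black bar), dotted lines at 1.5-fold and, at the right, all 11218 measured genes (box, median and quartiles; whiskers, 5th to 95th percentile). The triangle is the lower bound of Mx1; the class medians run from 0.13 to 0.64, all above the median of 0.00 over all genes, and points below 0 occur in every class but the IFIT proteins and the transcription factors.

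Genes that attach or remove ISG15, ubiquitin and ADP-ribose had a median of 0.13, with 5 of 8 above 0. That median turned to -0.035 when all probe sets of each gene were averaged, and stood at 0.27 when shared probe sets were left out and at 0.35 without genes whose probe sets differ in sign, so the rank of the class is not settled. Herc6, the main ligase that joins ISG15 to proteins in mice, was above 0 on all 4 probe sets, with a mean of 0.27 ± 0.18 (SD between probe sets) and 952 and 1328 units on the brightest. Usp18, which takes ISG15 off again and damps the type I receptor, read 1546 and 1974 units, 1.28-fold higher. Parp12, an ADP-ribosyltransferase gene, read 2279 and 2929 units, 1.29-fold higher. All 3 were higher on the CSF1 array.

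Parp9 and Dtx3l, whose proteins form one complex, lie beside Parp14 in the genome, and all 3 were close to level. Parp9 read 2199 and 1995 units, 1.10-fold lower. Dtx3l had a mean of -0.08 ± 0.23 and Parp14 of 0.00 ± 0.25 (SD between 2 probe sets each), so their probe sets pointed in opposite directions. Trim30a, a TRIM gene known to restrain Toll-like receptor signalling, was below 0 on both probe sets, with a mean of -0.23 ± 0.12. Trim25, a ubiquitin ligase linked to RIG-I activation, read 3292 and 2439 units on its brightest probe set, 1.35-fold lower. Its probe sets spread from -0.49 to 0.42, with a mean of -0.17 ± 0.51 (SD between 3 probe sets).

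**Figure D4:**
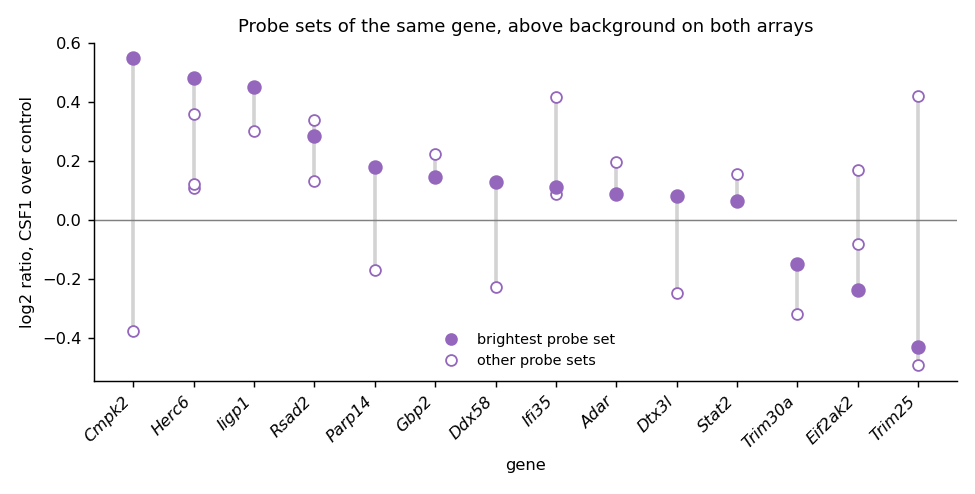
Log2 ratio of every probe set above background on both arrays for the 14 interferon-stimulated genes that have more than 1 such probe set, ordered by the ratio of the brightest (filled). Of these genes, 7 lie wholly above 0, Trim30a lies wholly below, and Cmpk2, Parp14, Ddx58, Dtx3l, Eif2ak2 and Trim25 span 0.

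Agreement between probe sets was limited. Of the 14 genes with several probe sets above background on both arrays, 8 had ratios of 1 sign and 6 had ratios of both signs. The 20 probe sets other than the brightest had a median log2 ratio of 0.13, with 13 above 0, and none of them reached 1.5-fold. A further 2 were above background on 1 array and both passed 1.5-fold: that of Zbp1 was at least 2.25-fold higher and that of Dhx58 at least 1.53-fold lower. Each of the 5 genes at least 1.5-fold higher had at most 1 probe set above background on both arrays; for Dhx58 the other probe set goes against the brightest, and for the remaining genes there is none to set beside it.

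Of the 6 measured GTPase genes 5 were above 0, and their median was 0.41. Immunity-related GTPases and guanylate-binding proteins gather on the vacuoles of intracellular microbes and break them open. Igtp read 2895 and 4139 units in control and CSF1, 1.43-fold higher. Iigp1 was higher on both probe sets, with a mean of 0.38 ± 0.10 (SD between probe sets) and 3602 and 4925 units on the brighter. Irgm1, which regulates the other immunity-related GTPases, read 4061 and 5210 units, 1.28-fold higher. All 3 of these immunity-related GTPase genes were higher on the CSF1 array.

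The 2 guanylate-binding protein genes lay on either side of 0. Gbp2 read 5783 and 6394 units, with a mean of 0.18 ± 0.06 over 2 probe sets, and Gbp3, separated from it by 1 protein-coding gene, read 1886 and 1620 units, 1.16-fold lower. Both of their windows hold the response element core. The dynamin-like GTPase gene Mx1 read 119 units in the control, below background, and 239 units after CSF1, at least 1.79-fold higher. With the background level raised to 191.46 units, the bound of Mx1 fell to 0.31 on the log2 scale, relative to all measured genes.

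All 4 transcription factor genes were above 0, by small amounts, with a median of 0.19. Irf1, Irf7 and Irf9 rest on probe sets whose names mark them as matching several transcripts. On probe sets without such a mark only Stat2 was left, at 0.074 relative to all measured genes. Irf7, the factor that amplifies interferon production, read 986 and 1267 units, 1.29-fold higher. Irf9, the DNA-binding part of the complex that occupies the response element, read 1364 and 1671 units, 1.22-fold higher. Stat2, its partner, had a mean of 0.11 ± 0.06 (SD between 2 probe sets) and 536 and 560 units on the brighter. Irf1, which interferon gamma induces directly, was close to level at 4156 and 4395 units. Irf7 lay above the pooled SD between probe sets, Irf9 at about that SD, and the others below it.

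Genes of interferon reception and its signalling did not show the upward shift as a list. In a list of 12 interferon receptor, kinase and inhibitor genes, 10 were measured, 4 above 0 and 6 below, with a median of -0.11. None was past 1.5-fold, where 5.95% of all measured genes were higher and 5.54% lower, so little can be read from that in 10 genes. The type I receptor genes Ifnar1 and Ifnar2 were at -0.13 each on the log2 scale, but Ifnar2 averaged 0.027 ± 0.16 (SD) over 3 probe sets. The interferon gamma receptor genes Ifngr1 and Ifngr2 were at -0.15 and -0.13. The kinase genes Jak1 and Tyk2 were at 0.01 and 0.00, and Jak2 was lower, with a mean of -0.32 ± 0.16 (SD between 2 probe sets). The phosphatase gene Ptpn6 was at 0.34 and averaged 0.15 ± 0.27 (SD) over 2 probe sets, and the STAT inhibitor gene Pias1 was at 0.13 and averaged 0.082 ± 0.36 over 4.

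In a list of 14 genes that lead to interferon production, 11 were measured, 6 of them above 0, with a median of 0.14. The interferon genes Ifnb1 and Ifna4 were below background on both arrays. Tlr9, the endosomal DNA receptor gene, read 200 and 381 units, 1.90-fold higher, and the cytosolic DNA sensor gene Mb21d1 (cGAS) read 324 and 521 units, 1.61-fold higher. Its downstream adaptor Tmem173 (STING) read 576 and 862 units on its brighter probe set, just under 1.5-fold, and averaged 0.16 ± 0.59 (SD) over 2. Irf5 and Irf3, factors that switch on interferon genes, were at 0.51 and 0.38 and the kinase gene Tbk1 at -0.25. Of 5 other interferon regulatory factors, which again include Irf5, 4 were measured, 2 above 0 and 2 below, with a median of 0.08. Irf8 averaged 0.22 ± 0.08 (SD) over 2 probe sets, and Irf2 was level at -0.01. Irf4, a factor of lymphocytes and alternatively activated macrophages, read 275 units in the control and 72.5 units, below background, after CSF1, at least 2.07-fold lower.

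**Figure D5:**
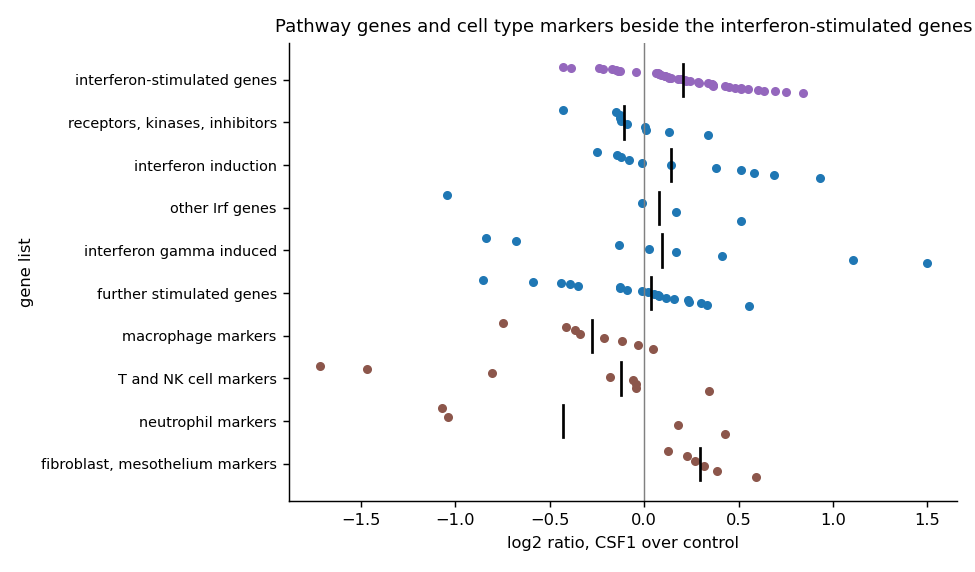
Log2 ratio (CSF1 to control) of the measured genes in each list (points) with the list's median (black bar): the interferon-stimulated genes (purple), pathway lists (blue) and cell type markers (brown). The interferon-stimulated genes have a median of 0.21, further stimulated genes 0.04 and receptors, kinases and inhibitors -0.11; fibroblast and mesothelium markers lie above 0 and macrophage markers mostly below.

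Other interferon-responsive genes did not show the same shift. In a list of 26 further interferon-stimulated genes, 20 were measured, 11 above 0 and 9 below, with a median of 0.04. Ifitm1, a relative of Ifitm3, read 620 and 344 units, 1.80-fold lower, and the schlafen gene Slfn5 read 272 and 181 units, 1.50-fold lower, and averaged -0.37 ± 0.31 (SD) over 2 probe sets. Uba7, the enzyme that activates ISG15, was at -0.44 but averaged -0.13 ± 0.43 (SD) over 2 probe sets of opposite sign. Trim34a was at -0.39 and Ifitm6 at -0.35, while Ifi203 was at least 1.47-fold higher. Both lists hold well-known interferon targets, and the difference between their medians was not tested.

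A list of 13 interferon gamma induced genes was spread widely, with 8 measured, 5 above 0, 3 below and a median of 0.10. The T-cell attractants Cxcl9 (224 and 634 units) and Cxcl10 (205 and 440 units) were 2.83-fold and 2.15-fold higher. The guanylate-binding protein gene Gbp7 was 1.79-fold lower on its brighter probe set (4955 and 2776 units), with a mean of -0.52 ± 0.44 over 2, and Cd274, the checkpoint ligand PD-L1, was 1.60-fold lower (5080 and 3173 units). Irgm2 and Ifi47, further GTPase genes, were at 0.41 and 0.17.

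Markers of several cell types also differed between the samples. Summed signals here and in the next paragraph include readings below background, which were not raised to it. Of 8 fibroblast and mesothelium markers, 6 were measured and all 6 were above 0 on their brightest probe set. The list's summed signal was 50677 units in the control and 64106 units after CSF1. The matrix genes Dcn and Col3a1 were at 0.59 and 0.39 (Col3a1 averaging 0.58 ± 0.27 over 2 probe sets). Over 2 probe sets each, Col1a1 averaged -0.06 ± 0.26 and Pdgfra -0.13 ± 0.63, so their direction is not settled. Upk3b was below background in the control (30.6 and 161 units), and Msln and Krt19 were below it on both arrays. Of 12 markers of T and NK cells, 8 were measured, 7 below 0, with sums of 7711 and 3636 units. Most of that difference lay in the granule genes Gzma (1554 and 472 units) and Gzmb (4266 and 1543 units), at -1.72 and -1.47. Prf1 was at -0.81, while Cd3g, Cd2 and Cd8a were at -0.04, -0.04 and -0.18 and Cd3d at 0.35. Cd8a averaged 0.08 ± 0.37 over 2 probe sets. Cd3e and Ncr1 were below background on both arrays, and Ifng read 139 units in the control and 53.0 units after CSF1. Of 8 macrophage markers 7 were below 0, Mertk and Cd68 being lowest at -0.75 and -0.41. Of 9 neutrophil markers 4 were measured, 2 above 0 and 2 below, with sums of 9754 and 8304 units, Mmp8 and Csf3r at -1.07 and -1.04, S100a8 and Mmp9 at 0.18 and 0.43, and S100a9, Ngp, Ltf and Camp below background. Their part in the ratios of the interferon-stimulated genes was not tested.

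Markers of the remaining types were few. Of 6 plasmacytoid dendritic cell markers, Siglech, Ly6d and Ccr9 were below background on both arrays, and Bst2 is described above. Tcf4 and Klk1 were at -0.66 (-0.35 ± 0.27 over 5 probe sets) and -0.62. The list summed to 5477 and 4566 units, of which Bst2, itself among the interferon-stimulated genes followed here, gave 3867 and 3539 units. Of 6 conventional dendritic cell markers Zbtb46 alone was measured, at -1.14, with sums of 510 and 358 units. B-cell markers summed to 705 and 464 units, and 4 of 6 were measured. Ms4a1, the only 1 above background on both arrays, was level at 151 and 153 units. Cd79a and Cd79b, below background after CSF1, were at -0.22 and -0.70 or lower, and Pax5, below background in the control, was at 0.39 or higher. Markers of eosinophils and mast cells summed to 2116 and 1903 units, 4 of 8 measured, with Tpsb2 at -0.43 and Kit at 0.36 or higher.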

How the data were processed

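Labelled RNA of each sample, 1 control and 1 CSF1, was read on an Affymetrix Mouse Genome 430 2.0 array. The deposited table holds linear intensity per probe set, and the authors analysed it with GeneSpring 6.2, per the series' design text. The sources used here do not give how probes were summarized. The column medians were 101 and 91.6 units, and means after trimming 2% at each end were equal, at 500.003. Values were moved to log2 and not rescaled.

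Of 45101 probe sets, 34958 named 1 gene, 932 several and 9211 none. Each gene took its probe set of highest mean log2 signal. Background was set by genes specific to unrelated tissues (79 found of 90 listed, 132 probe sets) at percentile 90 of their values; lower values were raised to it, so a fold with 1 array there is a lower bound. The genes and lists were chosen with earlier results of these data known. Named were all 45 genes, up to 6 of the largest absolute ratios in each pathway list, the main receptor and kinase genes, and the 2 largest of each marker list. Probe set names ending in _a_at can match several transcripts of a gene, and in _s_at or _x_at those of several genes; 13 of the 42 measured genes rest on such a probe set. The counting was tested on simulated data whose moved genes lay well above background. That test did not cover lower bounds or the scatter between probe sets seen here. Python 3.11.15, numpy 2.4.6, pandas 2.3.3, statsmodels 0.14.6 and matplotlib 3.10.9 were used.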

Additional observations from a re-analysis of the deposited data

How the results depend on the processing

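The median of the interferon-stimulated genes lay between 0.19 and 0.23, relative to all measured genes, under quantile, median, loess (span 0.3) and spike centring, 3 other background settings, both other choices of probe set, and, chosen after seeing the data, only genes above background on both arrays or without genes whose probe sets differ in sign. Between 73.2% and 81.3% of the measured interferon-stimulated genes were above 0 on the same relative scale. With a threshold of 2-fold in place of 1.5-fold, 0 genes were higher. That count was 1 with background at the median of all values or with none (Mx1, otherwise a bound), and 1 on probe sets not marked as shared (Zbp1). On probe sets not marked as shared, 32 genes were measured, and Stat2, at 0.074, was the only transcription factor gene left. The medians were then 0.13 for antiviral effectors, 0.42 for sensors and 0.27 for ISG15, ubiquitin and ADP-ribose enzymes. The last was -0.035 with the mean of all probe sets, a change of sign, and 0.35 without genes whose probe sets differ in sign; the cause was not tested. Of 42 genes, 40 kept their sign under each of up to 9 other settings that gave a value, and Dtx3l and Xaf1 (both -0.08 with the mean of all probe sets) did not; Zbp1 was at 1.18 or higher on its probe set not marked as shared. The mean of all probe sets takes in those below background: it gives Ddx58 0.34, where the 2 above background average -0.05, and the sign of Xaf1 turns on a probe set of 85.3 and 65.9 units. Relative to 18 hybridisation spikes, all measured genes had a median of 0.28, so ratios near 0 have a direction only relative to other genes. Signals near background, as for Mx1, limit what a ratio shows. No paired analysis was possible because each group has 1 array.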
